A study of Mus musculus with 20 samples.

Results

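Cytosolic ribosomal proteins build the small and large subunits of the ribosome in the cytoplasm. The genes were taken by symbol, as those starting with Rpl or Rps and a digit, with the ribosomal S6 kinases left out. By that rule 57 of the 11972 genes with an N6-methyladenosine (m6A) peak in any stage were members, and they carried 187 of the 84778 peaks. Of the 57, 46 were canonical ribosomal protein genes (21 of the small and 25 of the large subunit), 8 were paralogs and 3 were annotated pseudogenes. The canonical genes that the rule can match number 73, so 27 had no peak in any list.

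The samples were germ cells of wild-type C57BL/6 mice, with no treatment or age named for them, from 5 successive stages of spermatogenesis. These were undifferentiated spermatogonia, which hold the stem cells, type A1 spermatogonia, which have begun to differentiate, preleptotene spermatocytes at the entry into meiosis, spermatocytes of the pachytene/diplotene stages, and the haploid round spermatids. Each stage had 2 libraries of RNA immunoprecipitated with an anti-m6A antibody and 2 of input RNA, made from poly(A) RNA that had been sheared to short fragments. The question was how m6A on these transcripts differs along the stages. Nothing in the labels ties the 2 replicates to different animals, so the p-values reflect the spread of these libraries alone, and that spread may be technical. How the cells were isolated is not given in the sources used here.

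Ribosomal protein mRNAs are among the most abundant messages of growing cells, and most begin with a terminal oligopyrimidine (TOP) tract, a run of C and T letters at the cap through which mTOR and Larp1 control their translation. In male germ cells the X chromosome is silenced during meiosis, and autosomal copies such as Rpl10l and Rpl39l stand in for X-linked ribosomal protein genes in mice. The m6A mark is written on many mRNAs by a complex of Mettl3 and Mettl14, most often in long exons and near stop codons, and is read by proteins that act on splicing, decay and translation.

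The annotated start is shown for members that the results below turn on, since several of their peaks reach the first bases of the transcript and the start is where a TOP tract would lie. The 30 bases run from 15 before to 15 after the annotated start (RefSeq, GRCm38.p6), 5′ to 3′ on the strand of the gene. Capitals mark the run of C and T letters of at least 8 letters, searched on that strand from 20 bases before to 20 after the start, so a run may be cut at the edge of the window. Rpl24, Rpl7l1 and Rps13 have no such run, and that of Rpl4 lies wholly before the annotated start.
Rpl15: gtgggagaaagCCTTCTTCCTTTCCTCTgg
Rpl7a: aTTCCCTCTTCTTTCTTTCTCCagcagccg
Rpl4: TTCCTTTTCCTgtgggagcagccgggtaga
Rpl24: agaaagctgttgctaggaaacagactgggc
Rpl7l1: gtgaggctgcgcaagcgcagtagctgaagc
Rps13: gagagcaaacgtcggtgagtggcgtcactt
Rpl27a: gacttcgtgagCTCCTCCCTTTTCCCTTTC
Rpl22l1: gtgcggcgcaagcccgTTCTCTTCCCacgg
Rps26: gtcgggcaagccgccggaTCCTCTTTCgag

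The first 5 of these genes had a peak in every stage, and the last 4 had a peak in undifferentiated spermatogonia that was lower in type A1. The windows lie at chr14:18270972-18271001 (minus strand) for Rpl15, chr2:26910792-26910821 (plus) for Rpl7a, chr9:64173372-64173401 (plus) for Rpl4, chr16:55966260-55966289 (plus) for Rpl24 and chr17:46782642-46782671 (minus) for Rpl7l1. They lie at chr7:116334176-116334205 (minus) for Rps13, chr7:109519180-109519209 (plus) for Rpl27a, chr3:28805493-28805522 (plus) for Rpl22l1 and chr10:128626492-128626521 (minus) for Rps26. A run of at least 8 pyrimidines was found in 23 of the 40 members with an entry (57.5%), against 18.4% of all 27025 genes with an entry. Among canonical genes it was found in 21 of 33 with a peak (63.6%) and in 6 of 21 without any peak (28.6%). Of 7 paralogs with an entry, 2 had such a run. These are counts of letters at annotated starts, which may differ from the starts used in germ cells.

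Libraries held 9622068 to 22402907 mapped reads. The type A1 libraries stood apart, with 68.3% to 87.5% of reads mapped, against 92.8% to 97.6% in the other 16. Replicates of a stage correlated at r of 0.841 to 0.892 across peaks, which share their libraries. Each stage has 1 peak list with a log2 enrichment of immunoprecipitate over input for each replicate, and a gene with at least 1 peak in a list is called marked. The lists differ in length and in their lowest listed mean enrichment, which was 1.48, 0.71, 1.42, 1.55 and 0.61 along the 5 stages. Levels are therefore compared within a list, and the absence of a peak does not mean the absence of m6A. The labels were checked against marker genes, of which Gfra1, Ret, Zbtb16, Etv5, Bcl6b, Id4 and Lhx1 were all marked in undifferentiated spermatogonia and none in round spermatids. Of these 7, 5 were also marked in type A1. The undifferentiated list also held all 5 preleptotene and 3 of 6 pachytene/diplotene markers. Type A1 markers were marked for 4 of 5 in both type A1 and preleptotene. Pachytene/diplotene markers were marked for 6 of 6 in both pachytene/diplotene and round spermatids. Round spermatid markers were marked for 4 of 6 in round spermatids, 3 in pachytene/diplotene and 0 before. The markers thus did not separate every stage. Sohlh1 had no peak in type A1, and Prm2 and Tnp1 had none in round spermatids. Markers of Sertoli, Leydig, stromal, endothelial, blood and macrophage cells were marked for 22 of 27 genes in undifferentiated spermatogonia, with summed log2 enrichments of 76.9 and 89.4 in the replicates. In type A1, preleptotene, pachytene/diplotene and round spermatids, 2, 5, 0 and 1 of the 27 were marked, with highest summed values of 3.96, 19.1, 0 and 2.32. Insl3, Cyp17a1, Pecam1, Adgre1 and Cd68 had no peak in undifferentiated spermatogonia.

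Along the 5 stages 51, 23, 38, 34 and 24 of the 57 members were marked. That is 89.5% of the members in undifferentiated spermatogonia, where 75.9% of all genes were marked, and 40.4% in type A1, against 61.1%. Preleptotene held 66.7% of the members and 62.4% of all genes, pachytene/diplotene 59.6% and 56.1%, and round spermatids 42.1% and 46.9%. Members and all genes here are those with a peak in at least 1 list. The small-subunit canonical genes were marked for 17, 7, 12, 13 and 7 of 21 along the stages, and the large-subunit ones for 24, 11, 17, 16 and 12 of 25. Both subunits were thus least often marked in type A1 and round spermatids, with 7 small-subunit genes in each. The undifferentiated list, with the most members, is also the list that held most markers of somatic cells, and their part in the count was not tested. Without that list 49 members had a peak, and the matching number for all genes is not given here.

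These counts rested on how long each list runs. When the 10950 best peaks were taken from each list, 31 members kept a peak in any list. Of these 15, 6, 6, 12 and 24 were marked along the stages, so round spermatids then held the most. That is 48.4%, 19.4%, 19.4%, 38.7% and 77.4%, against 59.5%, 57.6%, 55.2%, 53.7% and 54.6% of all genes. With a common lowest enrichment of 1.55 the counts were 51, 6, 38, 34 and 5 of 56 members. That is 91.1%, 10.7%, 67.9%, 60.7% and 8.93%, against 78.7%, 49.1%, 64.6%, 58.1% and 33% of all genes. Type A1 held 6 members under both settings, as many as preleptotene under the first and 1 more than round spermatids under the second. The order of the stages thus changed with where each list ends.

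**Figure D1:**
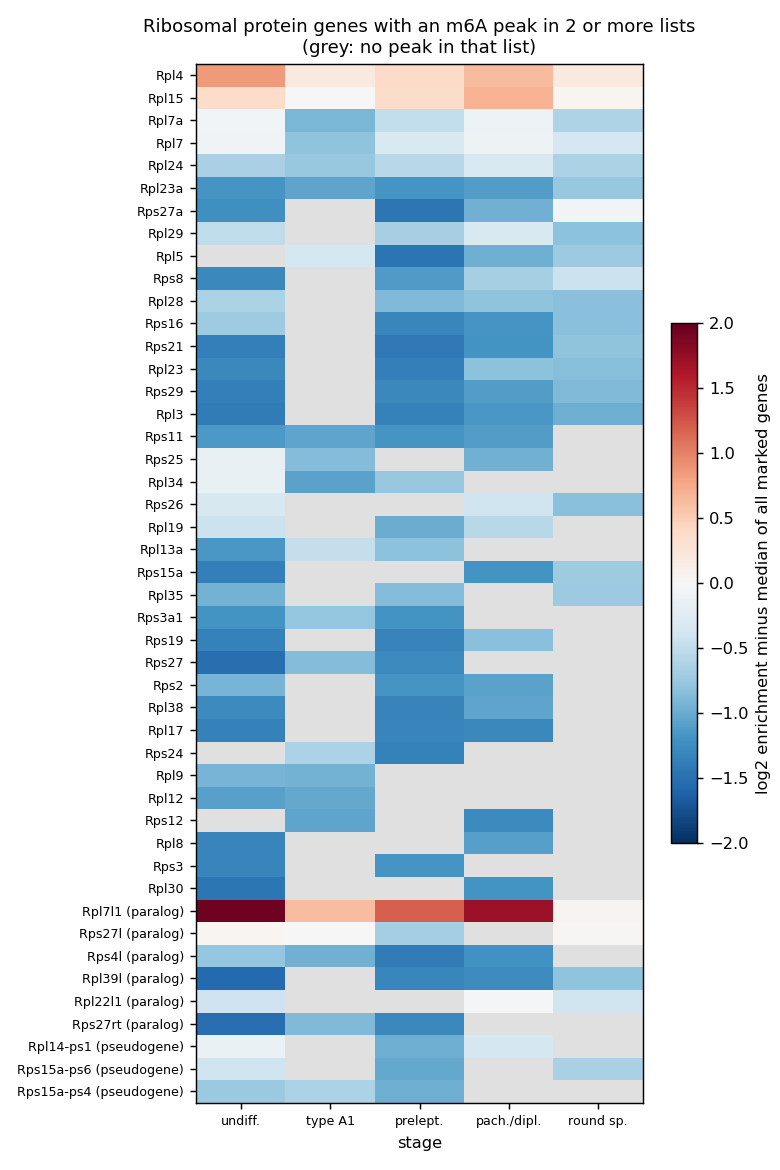
Log2 enrichment of the strongest peak of the 46 ribosomal protein genes marked in at least 2 lists (rows) in 5 stages (columns), given as the difference from the median of all marked genes of the same list, with grey where the list holds no peak. Most coloured cells are blue, below the median, and the rows above it in most of the stages where they are marked are Rpl7l1, Rpl4, Rpl15 and, by small margins, Rps27l.

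Marked members sat low in every list. The median log2 enrichment of the strongest peak of a member was 2.46 in undifferentiated spermatogonia, against 3.51 for all marked genes. In type A1 it was 1.18 against 2.05, in preleptotene 2.19 against 3.36, in pachytene/diplotene 2.25 against 3.23 and in round spermatids 1.14 against 1.86. Below the median of all marked genes lay 46 of 51, 20 of 23, 35 of 38, 31 of 34 and 20 of 24 marked members along the stages. Within 1 log2 unit of the lowest listed peak lay 52.9%, 82.6%, 68.4%, 64.7% and 79.2% of them, against 10.3%, 30.7%, 11.4%, 19.8% and 35.4% of all marked genes. The median member stood at percentile 9.64, 6.48, 4.56, 8.16 and 10.1 of its list. Members also had few peaks each, 1.1 per marked gene and list, against 2.34 over all genes. Transcript lengths were not available, and their part in this number was not tested. The median SD between replicates of a member was 0.32, 0.13, 0.18, 0.39 and 0.13 along the stages.

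**Figure D2:**
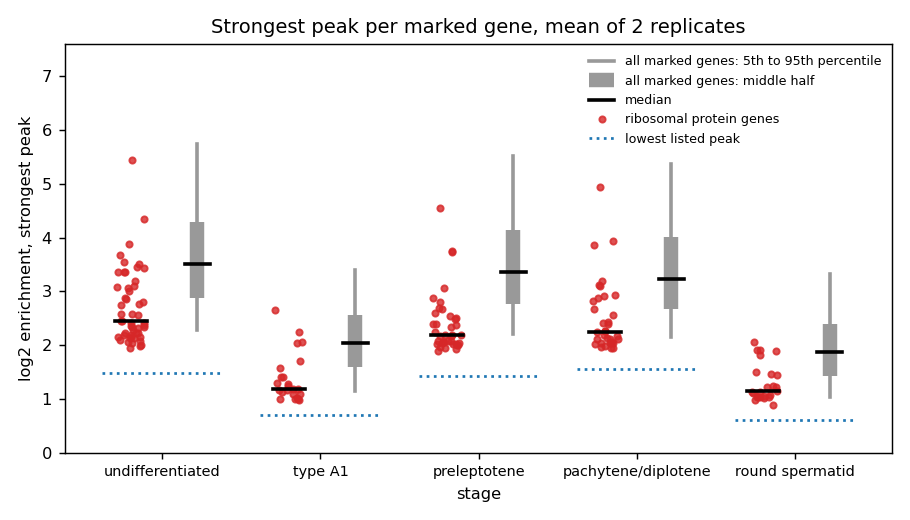
Log2 enrichment of the strongest peak per marked gene (y axis) in each stage (x axis), mean of 2 replicates, for ribosomal protein genes (red points) and all marked genes (thick grey bar the middle 50%, thin line the 5th to 95th percentile), with medians as black lines and the lowest listed peak as a dotted line. In each stage the members' median lies below the middle 50% of all marked genes, such as 2.46 against 3.51 in undifferentiated spermatogonia.

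In 7 members, all of the large subunit, a peak was listed in all 5 stages, against 2894 of all 11972 genes (24.2%), so the members' share was 12.3%. Without the type A1 list 17 members had a peak in all of the remaining stages. The share of all genes in those stages is not given here, so this count does not set the members apart. Linking peaks of a transcript that shared at least 50% of the shorter one gave 71 sites on the members, of which 8 were listed in all 5 stages and 22 in 1 stage alone. The 8 sites fall on the 7 genes, with 2 on Rpl4.

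Rpl7l1 encodes a paralog of Rpl7 found in precursors of the large subunit in human cells, and lies on chromosome 17 (46773907 to 46782656). It had the highest peak of any member in each stage except round spermatids. The peak lay at the start of the transcript, bases 22 to 211 in undifferentiated spermatogonia, over the start codon. Its log2 enrichments in the 2 replicates were 5.53 and 5.37 in undifferentiated spermatogonia, 2.81 and 2.51 in type A1, 4.74 and 4.38 in preleptotene, 5.59 and 4.31 in pachytene/diplotene, and 2.10 and 1.73 in round spermatids. Against all marked genes these values stood at percentile 92.8, 79.1, 83.8, 91.4 and 52.8. Rpl7l1 also had the only 3′ UTR peaks among members. In type A1 (bases 2168 to 2382), preleptotene (2177 to 2378) and pachytene/diplotene (2084 to 2346) they overlapped, and the undifferentiated one lay elsewhere, at bases 1559 to 1741.

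Rpl4 encodes a large-subunit protein whose loop lines the exit tunnel. It had 10 peaks over the 5 lists, the most of any member, at 2 adjoining sites in the coding sequence. The downstream site, bases 1109 to 1273 in undifferentiated spermatogonia, was the stronger in every stage. It had log2 enrichments of 4.31 and 4.40 in undifferentiated spermatogonia, 2.29 and 2.20 in type A1, 3.86 and 3.63 in preleptotene, 4.13 and 3.58 in pachytene/diplotene, and 2.18 and 1.93 in round spermatids. At the upstream site the values were 3.79 and 4.20, 1.45 and 1.50, 3.20 and 3.21, 3.41 and 3.11, and 1.64 and 1.83 in the same order of stages.

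Rpl15 encodes a large-subunit protein that is mutated in some patients with Diamond-Blackfan anemia. Its start codon peak, at bases 16 to 174 in undifferentiated spermatogonia, had log2 enrichments of 3.68 and 4.06 there, 2.06 and 2.03 in type A1, 3.53 and 3.93 in preleptotene, 4.44 and 3.42 in pachytene/diplotene, and 1.82 and 2.00 in round spermatids. Rpl7a, whose start shows the longest pyrimidine run above, also had its peak at the start codon, from base 10, at 3.30 and 3.61, 1.06 and 1.20, 3.05 and 2.70, 3.45 and 2.77, and 1.36 and 1.14 along the stages. The peaks of Rpl7, Rpl24 and Rpl23a lay in the coding sequence. They were strongest for Rpl7 (3.17 and 3.71 in undifferentiated spermatogonia) and weakest for Rpl23a (2.15 and 2.51). All 8 sites had their 2 lowest stages in type A1 and round spermatids, which are also the lists with the lowest medians over all genes.

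**Figure D3:**
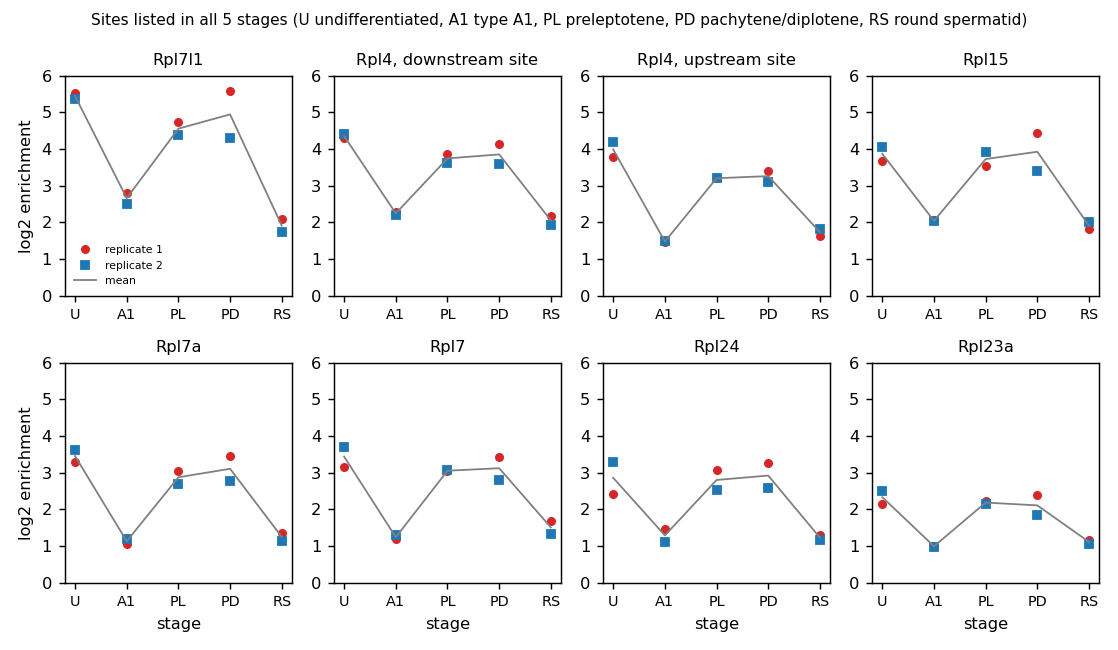
Log2 enrichment (y axis) of the 8 sites listed in all 5 stages (x axis, U undifferentiated, A1 type A1, PL preleptotene, PD pachytene/diplotene, RS round spermatid), with both replicates and their mean. Type A1 and round spermatids are the 2 low stages at each site, and the Rpl7l1 replicates in pachytene/diplotene are the farthest apart, at 5.59 and 4.31.

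A peak in 1 list alone was found on 11 members (19.3%), near the 22.5% of all genes. Of the 11, 8 had it in undifferentiated spermatogonia, and the matching share of all genes is not given here. Of these 8, Rps13, a small-subunit protein gene (chromosome 7, 116331507 to 116334190), was the strongest, with 3.45 and 3.89 at bases 71 to 229, over the start codon. Rpl27a, a large-subunit gene (chromosome 7, 109519195 to 109522369), followed with 2.89 and 4.12 at bases 31 to 150 of the coding sequence. Rpl13 (2.32 and 2.59), Rpl31 (2.35 and 2.56) and Rpl10l (2.12 and 2.71) were the next highest, and Rps10, Rpl21 and the X-linked Rps4x completed the group. The X-linked genes Rpl10, Rpl36a and Rpl39 had no peak in any list. Rpl10l, the autosomal copy of Rpl10 needed for male meiosis in mice, was thus listed before meiosis and not in pachytene/diplotene or round spermatids. Its second peak in undifferentiated spermatogonia was weaker, at 1.37 and 2.71.

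Rpl39l, the autosomal copy of Rpl39, was marked in every stage but type A1, with 1.67 and 2.22 in undifferentiated spermatogonia, 2.10 and 2.03 in preleptotene, 2.17 and 1.78 in pachytene/diplotene, and 1.04 and 1.09 in round spermatids. It had the lowest level of any marked member in undifferentiated spermatogonia. Rpl36al, the autosomal copy of Rpl36a, had no peak. Members listed in 1 later stage alone included Rps6 in type A1 (1.42 and 0.93), the target of the S6 kinases, and Rpl3l in preleptotene (1.74 and 2.33), a form known from striated muscle. Rps19, whose human gene is the one most often mutated in Diamond-Blackfan anemia, was marked in undifferentiated spermatogonia (1.80 and 2.52), preleptotene (2.02 and 2.03) and pachytene/diplotene (2.99 and 1.78). Of the pair that binds the 5S rRNA and Mdm2, Rpl11 had no peak, and Rpl5 had one in every stage but undifferentiated spermatogonia. Rps27l, a p53 target, stood among the 5 highest members in undifferentiated spermatogonia (2.67 and 4.42), type A1 (2.38 and 1.74) and round spermatids (1.85 and 1.93), and its peak started at base 1 of the transcript. Rps27a, which is made as a fusion with ubiquitin, joined the 5 highest in round spermatids through a 5′ UTR peak at bases 1 to 100 (1.89 and 1.74).

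The pseudogenes were Rpl14-ps1, marked in undifferentiated spermatogonia (3.13 and 3.60), preleptotene (2.30 and 2.48) and pachytene/diplotene (3.40 and 2.34), Rps15a-ps4 and Rps15a-ps6. Their reads may come from Rpl14 or Rps15a, which they resemble. Rps27 and its retrotransposed copy Rps27rt had almost the same values at the same bases, 1.99 and 2.00 against 1.99 and 1.98 in undifferentiated spermatogonia. Which of the 2 genes gave these reads is uncertain.

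Start codons held a larger share of the members' peaks than of all peaks. In the 4 lists that label codons, 44 of 145 member peaks (30.3%, 95% Wilson interval 23.4% to 38.3%) were labelled start codon, against 7292 of 66029 peaks (11%). The share was 29.8%, 28%, 35.1% and 26.9% in undifferentiated, type A1, pachytene/diplotene and round spermatid lists, against 11.4%, 10.5%, 11.7% and 10.3% of all peaks. Stop codons held 16 of 145 member peaks (11%, against 11.1% of all), the coding sequence 71 (49% against 58.4%) and 3′ UTRs 3 (2.07% against 13.2%). The intervals cover counting error only and treat peaks as independent, although the same site often recurs in several lists. With the strongest peak per gene alone the start codon share lay within the interval. The preleptotene list has no codon labels, and only 1 of its 18 blank member labels could be placed, so it does not bear on this share. Member peaks were 159 bases wide at the median (181 for all peaks) and 11 of 187 began at base 1 of the transcript. The part of transcript length in the start codon share was not tested.

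**Figure D4:**
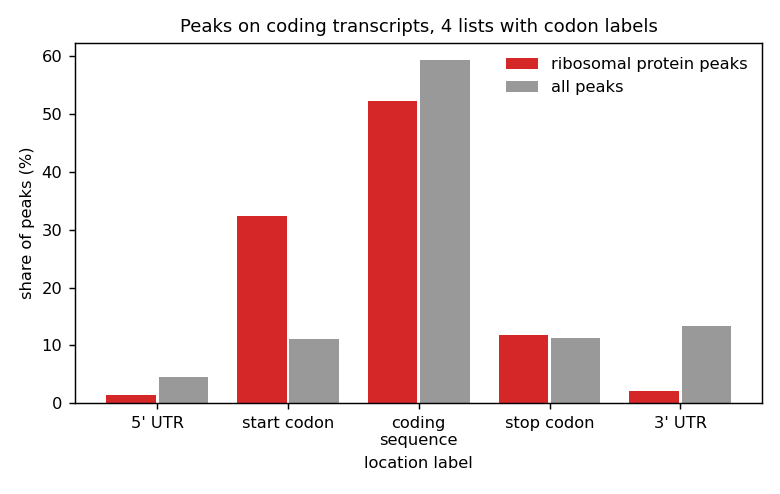
Share of peaks in percent (y axis) by location label (x axis) over the 4 lists with codon labels, for peaks on coding transcripts of ribosomal protein genes (red) and of all genes (grey). Start codons hold 32.4% of member peaks and 11.2% of all peaks, and 3′ UTRs 2.21% and 13.4%.

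From one stage to the next, members moved in and out of the lists. Type A1 over undifferentiated spermatogonia lost 32 and gained 4 of the 55 members marked in either (58.2% and 7.27%), where 24.2% and 5.86% of all genes were lost and gained. Of the 32 lost, the strongest in undifferentiated spermatogonia were Rps13, Rpl27a, Rpl14-ps1, Rps26 and Rps15a-ps6. The 4 gained were Rpl5 (1.93 and 1.46), Rps24 (1.45 and 1.37), Rps6 (1.42 and 0.93) and Rps12 (1.10 and 0.90). With mean levels of 0.999, 1.17 and 1.41, Rps12, Rps6 and Rps24 lay below the lowest listed undifferentiated peak of 1.48, so an equal value would not have been listed there. Undifferentiated values at the overlapping preleptotene peaks were 1.63 and 2.45 for Rpl5 and 1.37 and 1.79 for Rps24. Their means of 2.04 and 1.58 were above 1.48, so a gain in the list does not show a lower undifferentiated value for these genes. Among the 40 undifferentiated member peaks with no type A1 peak over them, the type A1 value at the same bases had a median of 0.42 and reached 1.32. In 8 of the 40 (20%) it was at least the lowest listed type A1 value of 0.71, against 4758 of 10021 such peaks of all genes (47.5%).

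Preleptotene over type A1 gained 20 and lost 5 of 43 members (46.5% and 11.6%), where 15.8% and 14.1% of all genes did. The strongest gained were Rpl29 (2.37 and 3.01), Rpl35 (2.49 and 2.50), Rpl28 (2.58 and 2.39), Rpl14-ps1 and Rpl19 (2.30 and 2.44). All 5 of these had also been marked in undifferentiated spermatogonia. The 5 lost were Rps25, Rps6, Rpl9, Rpl12 and Rps12. With equal numbers of best peaks 3 were gained and 3 lost, and with the common lowest enrichment 32 and 0. Shares of all genes gained and lost under these settings are not given here, so these counts do not set the members apart.

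Pachytene/diplotene over preleptotene gained 8 and lost 12 of 46 members (17.4% and 26.1%), close to the 19.2% and 27.3% of all genes. The strongest gained were Rpl22l1 (3.47 and 2.92), a paralog of Rpl22, Rps26 (2.82 and 2.83), Rps25 (2.31 and 2.21), Rpl8 (2.52 and 1.73) and Rpl30 (2.20 and 1.88). The strongest lost were Rps27l (2.79 and 2.56 in preleptotene), Rpl34 (2.46 and 2.75), Rpl13a (2.35 and 2.72), Rpl35 (2.49 and 2.50) and Rps15a-ps4 (1.78 and 2.99). With equal numbers of best peaks none was lost, and the share of all genes lost under that setting is not given here.

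Round spermatids over pachytene/diplotene gained 3 and lost 13 of 37 members (8.11% and 35.1%), where 15.4% and 29.3% of all genes did. The strongest lost were Rpl14-ps1, Rpl19 (3.14 and 2.20 in pachytene/diplotene), Rps19, Rps25 and Rpl38 (2.21 and 2.15). The gained ones were Rps27l, Rps15a-ps6 and Rpl35, and their pachytene/diplotene values at the same bases were not low. Rps27l had 1.85 and 1.93 in round spermatids and 2.62 and 3.69 in pachytene/diplotene, and Rpl35 had 1.35 and 0.92 in round spermatids and 2.68 and 1.42 in pachytene/diplotene. Rps15a-ps6 had 1.32 and 1.11 in round spermatids and 1.57 and 3.49 in pachytene/diplotene. Before centring all 26 round spermatid member peaks were lower than in pachytene/diplotene, and the medians over all peaks differed by -1.18. These lower values are thus not particular to the gained genes. The centred differences were -0.09 for Rps27l, 0.26 for Rpl35 and -0.14 for Rps15a-ps6, and none was called. With equal numbers of best peaks 14 members were gained and 2 lost, and the shares of all genes under that setting are not given here.

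Single peaks were tested where a table gives both stages' values at its own peaks, with limma on 2 replicates against 2, each replicate centred on its median over all peaks and Benjamini-Hochberg adjustment across every peak tested in that table (threshold 0.05). Higher and lower are then relative to the typical peak. The medians differed between stages before centring, by -1.69 for type A1 minus undifferentiated, 1.06 for preleptotene minus type A1, 0.00 for preleptotene minus undifferentiated, and -1.61 and -1.18 for round spermatid minus pachytene/diplotene at the peaks of the earlier and of the later stage. The spread over peaks differed too. At type A1 peaks the SD was 1.21 and 1.14 in preleptotene and 0.68 and 0.66 in type A1, and at round spermatid peaks 0.69 and 0.70 in round spermatids and 1.25 and 1.22 in pachytene/diplotene. The part of this spread in the calls was examined only by the settings that equalize it, which are named below where they end a call.

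Of the 57 undifferentiated member peaks, 6 were lower and 3 higher in type A1 (10.5% and 5.26%), where 15.9% and 9.22% of all peaks were. The median centred difference was -0.11 over members and -0.10 over all peaks. The peak of Rps13 had 0.29 and 0.11 in type A1, against 3.45 and 3.89 in undifferentiated spermatogonia. Type A1 was low in both replicates and the stages did not overlap before centring, as at 56 of the 57 member peaks. The medians over all peaks differed by -1.69, and the share of all peaks without overlap is not given here. The lack of overlap therefore does not set this peak or the members apart. The centred log2 difference of Rps13 was -1.78 ± 0.25 (SE, limma adjusted p = 0.003). Rpl27a had 0.32 and 0.30 in type A1 and 2.89 and 4.12 in undifferentiated spermatogonia, a centred difference of -1.51 ± 0.31 (SE, limma adjusted p = 0.0105). Both calls held under each of the 11 alternatives run for these peaks. The restriction to peaks listed in both stages was not among them, since neither peak had a type A1 peak over it. Both peaks entered the test only through the undifferentiated list, the stage where they are high. Undifferentiated spermatogonia are also the stage with 22 of 27 somatic markers marked, against 2 in type A1, and their part in these differences was not tested.

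Rpl22l1 had -0.53 and 0.53 in type A1 and 3.12 and 3.05 in undifferentiated spermatogonia (centred difference -1.40). Its type A1 replicates lay on either side of 0, and the call was lost without the first of them. Rpl7l1 had 2.65 and 2.39 in type A1 and 5.53 and 5.37 in undifferentiated spermatogonia (centred difference -1.24 ± 0.30, limma adjusted p = 0.0192), a call lost under quantile normalization and without type A1 replicate 2. Rpl7l1 was lower and still had the highest type A1 peak of any member, at percentile 79.1 of all genes marked in that list. Rpl14-ps1 (centred difference -1.18) and Rps26, named here as the sixth after its value was seen (0.43 and 0.34 in type A1, 3.16 and 3.22 in undifferentiated spermatogonia, centred difference -1.12), were each lost when either type A1 replicate was left out. The peaks of Rpl22l1, Rpl14-ps1 and Rps26 also had no type A1 peak over them. They too entered the test only through the stage where they are high.

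The 3 peaks called higher in type A1 lay at stop codons. Rpl13a, whose protein can leave the ribosome to silence inflammatory mRNAs, had 2.33 and 1.95 in type A1 and 1.74 and 2.95 in undifferentiated spermatogonia. The stages overlapped before centring, and the centred difference was 1.48 ± 0.32 (SE, limma adjusted p = 0.0131). Rps27 had 1.59 and 1.41 in type A1 and 1.99 and 2.00 in undifferentiated spermatogonia, with a centred difference of 1.19, and Rps27rt, which cannot be told apart from it, of 1.18. Without centring all 3 differences were below 0, at -0.20, -0.50 and -0.51, and all 3 calls were lost without type A1 replicate 1. The differences of Rpl13a and Rps27rt were not called without centring (limma adjusted p = 0.638 and 0.178). The 3 calls are thus relative to the typical peak. Whether the level itself rose or fell cannot be told, since how the values were scaled is not given.

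At the 25 type A1 member peaks, 4 were lower and 2 higher in preleptotene (16% and 8%), where 14.4% and 13.6% of all peaks were. Rpl5 had 1.62 and 1.31 in preleptotene and 1.93 and 1.46 in type A1 (centred difference -1.29 ± 0.28, limma adjusted p = 0.0129), and Rps6 had 0.89 and 1.04 in preleptotene and 1.42 and 0.93 in type A1 (centred difference -1.27). Rps4l had 1.16 and 1.28 in preleptotene and 1.20 and 0.97 in type A1 (centred difference -0.92), and Rps25, which is needed for initiation on some viral RNAs, had 1.24 and 1.47 in preleptotene and 1.28 and 1.07 in type A1 (centred difference -0.89). For all 4 the uncentred values of the stages overlapped. Without centring it was 0.14 for Rps4l and 0.18 for Rps25, of the other sign. Scaling the replicates to one spread or quantile normalization left 1 of the 4 calls, that of Rpl5. Without type A1 replicate 1, and without centring, 0 of the 4 remained, and those of Rps25 and Rps4l were also lost without type A1 replicate 2. The peaks of Rps6, Rps4l and Rps25 had no preleptotene peak over them and entered the test only through the type A1 list.

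Rpl7a had 3.34 and 3.04 in preleptotene and 1.06 and 1.20 in type A1, with a centred difference of 1.0 ± 0.26 (SE, limma adjusted p = 0.0257). Rpl7l1 had 4.92 and 4.44 in preleptotene and 2.81 and 2.51 in type A1 (centred difference 0.96 ± 0.28, limma adjusted p = 0.0378). For both the stages did not overlap before centring, as at 21 of the 25 type A1 member peaks. The medians over all peaks differed by 1.06, and the share of all peaks without overlap is not given here. Both calls were lost when either type A1 replicate was left out and when only peaks listed in both stages were tested, and that of Rpl7l1 also under quantile normalization and under scaling to one spread.

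Preleptotene was also compared with undifferentiated spermatogonia. Of the 42 preleptotene member peaks, 0 were lower and 1 was higher (0% and 2.38%), where 2.45% and 5.36% of all peaks were, and 5 member peaks had an unadjusted p under 0.05. The one called was Rpl3l, with 1.74 and 2.33 in preleptotene and 0.49 and 0.03 in undifferentiated spermatogonia (centred difference 1.78 ± 0.40, limma adjusted p = 0.0197). This peak entered the test only through the preleptotene list, the stage where it is high. The call was lost under quantile normalization, under scaling to one spread, and without the second replicate of either stage. Members lay below 0 at 30 of the 42 peaks, with a median of -0.27 against 0.01 over all peaks, and at most single peaks this did not exceed the replicate spread.

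Round spermatids were compared with pachytene/diplotene from both lists. At the 37 pachytene/diplotene member peaks 1 was lower and 0 were higher in round spermatids (2.7% and 0%), where 7.06% and 1.71% of all peaks were. At the 26 round spermatid member peaks 2 were lower and 0 higher (7.69% and 0%), where 10.9% and 16.1% of all peaks were. Unadjusted p under 0.05 was reached by 5 and 6 member peaks. These 2 comparisons use the same libraries. The peak called from both lists was that of Rpl7l1 at the transcript start, labelled start codon in round spermatids and coding sequence in pachytene/diplotene. At the round spermatid peak it had 2.10 and 1.73 in round spermatids and 5.55 and 4.28 in pachytene/diplotene (centred difference -1.83 ± 0.32, limma adjusted p = 0.0036). Before centring the stages did not overlap there, as at all 26 round spermatid member peaks. The medians over all round spermatid peaks differed by -1.18, and the share of all peaks without overlap is not given here. At the pachytene/diplotene peak of Rpl7l1 the centred difference was -1.42 (limma adjusted p = 0.0326). The first was lost without round spermatid replicate 2. The second was lost without either round spermatid replicate, without pachytene/diplotene replicate 1 and under quantile normalization. Rpl29 had 1.13 and 0.94 in round spermatids and 3.32 and 2.93 in pachytene/diplotene (centred difference -0.92 ± 0.25, limma adjusted p = 0.0252), lost without either round spermatid replicate. The median centred difference of members was 0.12 at pachytene/diplotene peaks and -0.21 at round spermatid peaks, against -0.01 and -0.05 over all peaks. Its sign thus depended on which list chose the peaks.

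**Figure D5:**
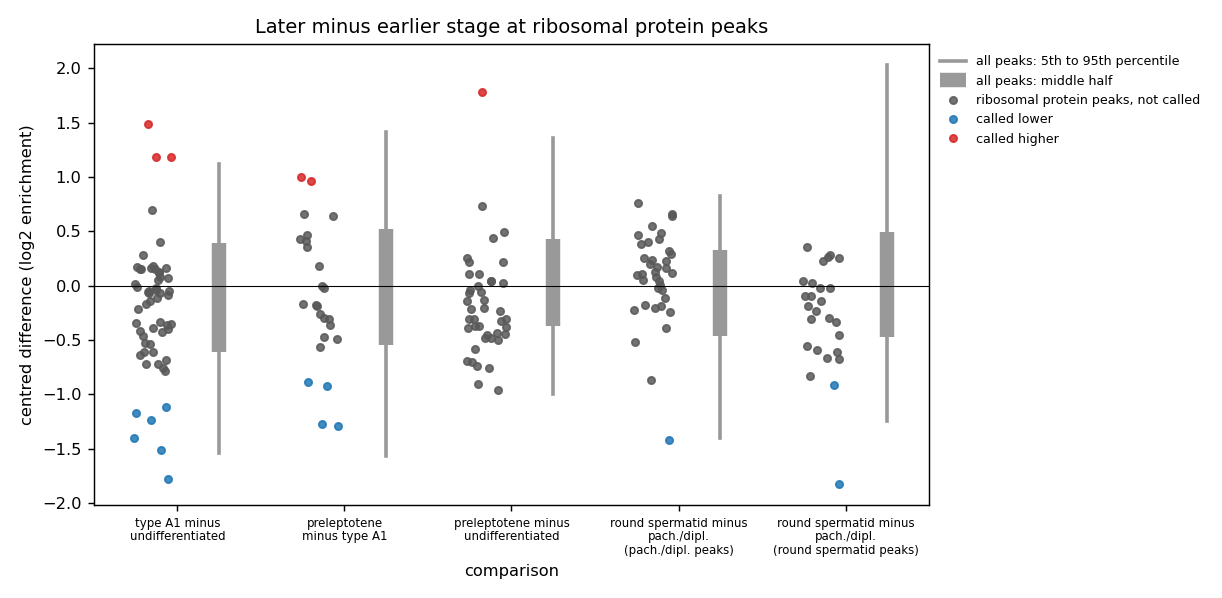
Centred log2 difference, later minus earlier stage (y axis), at each ribosomal protein peak in 5 comparisons (x axis), with limma calls in blue (lower) and red (higher) and all peaks of the table as grey bars. Rps13 at -1.78 in the first comparison and Rpl7l1 at -1.83 in the last are the lowest points, and most members lie between the ends of the grey bars.

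Genes that act with the ribosomal proteins were described in the same way. The 6 canonical genes whose symbols the rule cannot match were marked for 4, 1, 3, 3 and 3 along the stages. Rplp0, which carries the stalk of the large subunit, was the one marked in all 5, at 3.83 and 3.72, 1.76 and 1.93, 3.16 and 2.58, 3.44 and 2.76, and 1.74 and 1.83. Of 11 other genes known for TOP mRNAs, 5 of them genes of elongation factors, 10, 8, 8, 9 and 6 were marked. At their 18 undifferentiated peaks 6 were lower and 1 higher in type A1, where 15.9% and 9.22% of all peaks were. At their 14 type A1 peaks 1 was lower and 4 higher in preleptotene, where 14.4% and 13.6% of all peaks were. Eef1g, a subunit of the elongation factor that reloads Eef1a, had a strongest peak, in the coding sequence, of 3.70 and 3.87 in undifferentiated spermatogonia, above the list's median of 3.51. Pabpc1, the poly(A)-binding protein gene, had its strongest peak in the 5′ UTR in undifferentiated spermatogonia, type A1 and pachytene/diplotene, and only a coding sequence peak in round spermatids.

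Among 10 genes of the mTOR and Larp1 control of TOP mRNAs, 8, 9, 9, 6 and 5 were marked along the stages, with Larp1, Larp4, Mtor and Tsc1 marked in each. The strongest Larp1 peak was labelled stop codon in undifferentiated spermatogonia (4.34 and 4.82, list median 3.51), and again in pachytene/diplotene and round spermatids. All 30 ribosome biogenesis genes were marked in undifferentiated spermatogonia, and 24, 27, 23 and 14 in the later stages. Their median level was 3.75, 2.15, 3.28, 3.36 and 1.92 along the stages, above the members' median of 2.46, 1.18, 2.19, 2.25 and 1.14 in each. Of their 101 undifferentiated peaks 12 were lower and 9 higher in type A1, shares near or under the 15.9% and 9.22% of all peaks. The 5 genes of ribosome quality control were marked for 4, 5, 4, 4 and 3, and the checkpoint genes Mdm2 and Trp53 in all stages but for Trp53 in round spermatids. Mdm2, which Rpl5 and Rpl11 bind, had a coding sequence peak in every stage, with 4.47 and 3.63 in round spermatids, above that list's median of 1.86.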

How the data were processed

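The 20 libraries are 2 immunoprecipitates and 2 inputs for each of 5 stages (10 groups of 2), per the labels. TopHat2 2.0.14 and the build mm10 are named by the submitters' processing notes, and how peaks were called, annotated and scaled is not given in the sources used here. Mapped read counts, and 1 peak table per stage with a log2 enrichment and a log2 ratio to an unnamed stage for each replicate, were deposited by the authors, per the file headers. That stage was identified by the deposited label of common peaks, which agreed at 100% with overlap by at least 1 base, and by correlations of 0.916 to 0.937, against at most 0.686 for other stages. Its values are enrichment minus ratio. Unmapped value columns numbered 0.

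Peaks with a value of exactly 0 (43 to 188 per table) were left out of tests. limma 3.58.1 (R 4.3.3, lmFit and eBayes) was fitted without a replicate block and tested on simulated data. A gene's level is its strongest peak, mean of 2 replicates. The members and all lists were chosen with earlier results of these data known. Named are members marked in all 5 lists, the 5 highest per list, up to 5 called per direction, gained, lost or in 1 list alone, the 5 with most peaks, and fixed genes; 1 item is not reported here. Starts are RefSeq (GRCm38.p6). Plots used matplotlib 3.10.9.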

Additional observations from a re-analysis of the deposited data

How the results depend on the processing

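Counts of called member peaks are given as higher and lower. No share over all peaks stands beside the counts of this section, so they do not set the members apart. Without centring they were 0 and 54 for type A1 minus undifferentiated, 15 and 0 for preleptotene minus type A1, and 36 and 25 lower for round spermatid minus pachytene/diplotene at the peaks of the earlier and the later stage. These uncentred counts take in the shifts of the medians over all peaks, of -1.69, 1.06, -1.61 and -1.18 in the same order. Uncentred differences changed sign for Rps27rt (-0.51), Rpl13a (-0.20), Rps27 (-0.50), Rps25 (0.18) and Rps4l (0.14). Quantile normalization left 1 lower for preleptotene minus type A1, 0 higher for preleptotene minus undifferentiated, and 0 and 4 lower for the round spermatid comparisons, and scaling to one median absolute deviation left 1 lower for preleptotene minus type A1 and 0 higher for preleptotene minus undifferentiated. With peaks listed in both stages alone there were 3 lower for type A1, 0 higher and 2 lower for preleptotene minus type A1, 0 higher for preleptotene minus undifferentiated and 1 lower at round spermatid peaks. Leaving out 1 replicate gave 0 to 5 higher and 3 to 11 lower for type A1, 0 to 5 higher and 0 to 8 lower for preleptotene minus type A1, 0 to 1 higher for preleptotene minus undifferentiated, 0 to 1 lower at pachytene/diplotene peaks, and 0 to 1 higher and 0 to 5 lower at round spermatid peaks. An arm left with 1 replicate is assumed to vary like the other. The replicate block changed no count of calls (3 higher and 6 lower for type A1), and the crossed pairing, chosen after seeing the data, gave 10 lower there; same-numbered samples correlated at -0.143 to 0.122, over 2 pairs.

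With equal numbers of best peaks 15, 6, 6 and 12 of 31 members were marked in the first 4 stages. The shares of all genes were 59.5%, 57.6%, 55.2% and 53.7%. Gained and lost were then 2 and 11, 3 and 3, and 14 and 2 for type A1, preleptotene and round spermatids over the stage before, and 0 were lost in pachytene/diplotene. With a common lowest enrichment 6 of 56 members were marked in type A1 and 5 in round spermatids, against 49.1% and 33% of all genes. Then 1 was gained in type A1, 32 were gained and 0 lost in preleptotene, and 1 was gained and 30 lost in round spermatids. Shares of all genes gained and lost under these settings are not given here. Without pseudogenes and paralogs 7 were lost in pachytene/diplotene and 1 gained in round spermatids. Without the type A1 list, left out after seeing the data, 17 members were marked in all lists, and the share of all genes there is not given here. The median level from 1 replicate was 2.20 to 2.78, 1.18 to 1.28, 2.20 to 2.27, 2.14 to 2.52 and 1.12 to 1.25 along the stages. Across alternatives, values of single named peaks kept their call in 166 cases, lost it in 44 and changed sign in 5. The cause of these changes was not tested. The number of libraries, 2 a stage, limits the precision of each difference, and the smallest difference that could be detected was not computed.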
